A study of Homo sapiens with 6 samples.

Results

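Transcripts of the cytosolic heat shock chaperones and their main regulator were compared between T47D cells that overexpress prolactin and T47D cells with an empty vector. T47D is an established cell line from a human breast cancer, labelled luminal. In the PRL group (3 libraries) the cells carried a PLVX-puro lentivirus with PRL, the prolactin gene. In the control group (3 libraries) they carried the PLVX-puro lentivirus control. Both groups were grown in RPMI1640 medium with fetal bovine serum, and the labels name no heat or other protein stress. The libraries of a group are described as biological replicates, but not whether each came from its own transduction, so p-values may measure only the spread between these samples. The members were the 10 genes of a fixed list of symbols, HSF1, HSPA1A, HSPA1B, HSPA8, HSPH1, HSP90AA1, HSP90AB1, DNAJB1, BAG3 and HSPB1, and all 10 were found among the 17891 genes of the table and passed the filter on low counts.

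HSP70 and HSP90 proteins are ATP-driven chaperones that hold and refold client proteins in the cytosol, and HSP90 also keeps steroid receptors and kinases in a state that can bind ligand or be activated. Most of these genes are classed as inducible because heat or misfolded protein raises them through HSF1, a transcription factor that chaperones hold inactive in resting cells and that binds heat shock elements, inverted repeats of the unit GAA, as a trimer. HSPA8 and HSP90AB1 are the constitutive partners of HSPA1A/HSPA1B and HSP90AA1. In breast cancer cells HSP90 is known for its part in keeping the estrogen and progesterone receptors ready for hormone. For the comparison of classes, 7 members (HSPA1A, HSPA1B, HSP90AA1, HSPH1, DNAJB1, HSPB1 and BAG3) were taken as inducible, 2 (HSPA8 and HSP90AB1) as constitutive, and HSF1 was kept apart.

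Stretches around the heat shock elements are shown first, because members that carry such an element differed in the direction in which they moved. RefSeq promoter windows (build GRCh38.p14) were found for 9 members, 14 windows in all, and the 250 bases before each start were searched on both strands. The search used TTCNNGAA and GAANNTTC as elements of 2 units. Elements of 3 units contain these and add NNTTC to the end of the first or NNGAA to the end of the second. Of the 14 member windows 7 held a 2-unit element (50%), 1 for each of 7 members, against 11.6% of all 35116 windows of that length. A 3-unit element was in 3 of the 14 (21.4%), against 0.441% of all windows. Each line gives 30 bases from 5′ to 3′ on the gene's strand, with the 2-unit elements in capitals (overlapping ones run together).
HSPA1A, chr6:31815426-31815455, plus strand: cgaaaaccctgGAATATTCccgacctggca
HSPA1B, chr6:31827622-31827651, plus strand: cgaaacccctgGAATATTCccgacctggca
HSPA8, far element, chr11:123062346-123062375, minus strand: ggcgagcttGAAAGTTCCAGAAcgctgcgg
HSPA8, near element, chr11:123062171-123062200, minus strand: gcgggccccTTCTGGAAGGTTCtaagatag
HSP90AA1, chr14:102087104-102087133, minus strand: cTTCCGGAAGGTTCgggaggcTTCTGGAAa
HSP90AB1, far element, chr6:44247769-44247798, plus strand: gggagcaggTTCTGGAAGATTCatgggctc
HSP90AB1, near element, chr6:44247822-44247851, plus strand: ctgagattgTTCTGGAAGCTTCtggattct
DNAJB1, far element, chr19:14518456-14518485, minus strand: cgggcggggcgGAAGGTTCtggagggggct
DNAJB1, near element, chr19:14518426-14518455, minus strand: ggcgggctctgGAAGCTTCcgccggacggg
HSPB1, chr7:76302480-76302509, plus strand: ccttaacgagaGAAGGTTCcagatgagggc

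Both constitutive members carried strict elements of 3 units, 2 in the window of HSPA8 and 2 in the third window of HSP90AB1. The stretches shown for HSPA8, HSP90AA1, HSP90AB1 and DNAJB1 lie inside the gene as GENCODE 29 draws it, and those of HSPA1A, HSPA1B and HSPB1 lie upstream of the gene. Among the inducible members only HSP90AA1, in the window of its second listed start, held a 3-unit element. HSPA1A and HSPA1B had a single 2-unit match each, at bases -106 to -99 and -105 to -98 from the start, between CCAAT boxes and upstream of a TATA box. The windows of HSPH1 and BAG3 held none of these letters. CCAAT or its complement was in 32.0% of all windows and TATAAA or its complement in 10.7%. A match is a description of letters and not a measured binding site. The HSPA1B promoter is shown at greater length, as the member with the largest rise, with the CCAAT boxes, the element and the TATA box in capitals.
HSPA1B, chr6:31827578-31827737, plus strand: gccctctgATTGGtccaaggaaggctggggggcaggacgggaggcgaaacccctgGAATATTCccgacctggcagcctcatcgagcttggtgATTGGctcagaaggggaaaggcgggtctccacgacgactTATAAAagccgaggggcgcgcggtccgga

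**Figure D1:**
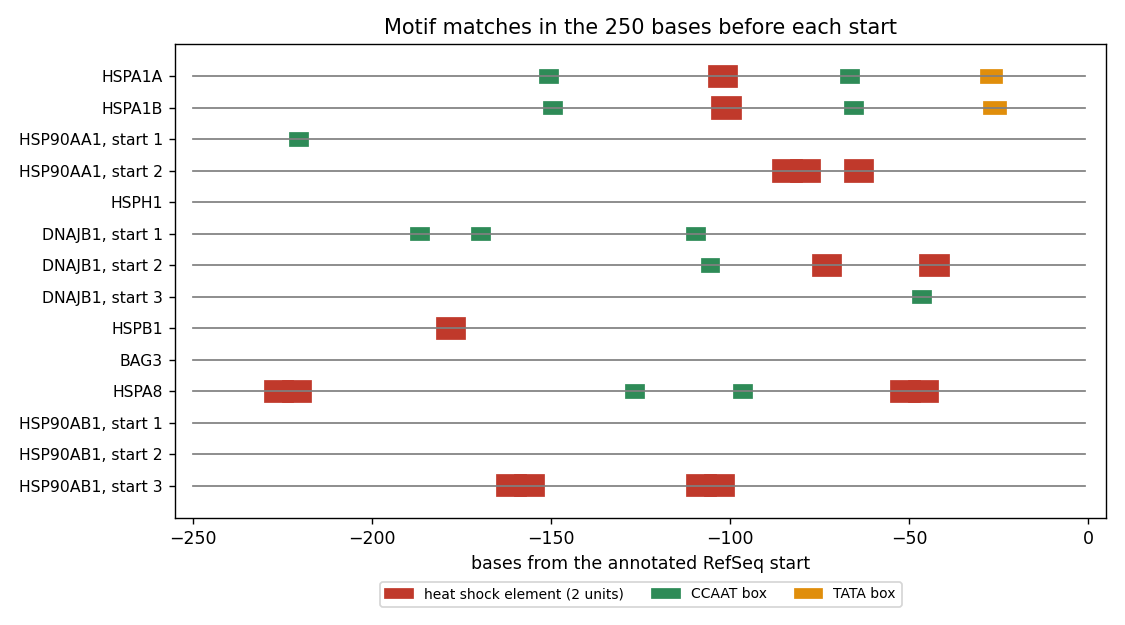
Motif matches in the 250 bases before each RefSeq start of 9 members (x axis: bases from the start; 1 line per start). Red boxes are 2-unit heat shock elements, green boxes CCAAT boxes and orange boxes TATA boxes; HSPA8 and the third start of HSP90AB1 each show paired elements, and HSPH1 and BAG3 show none.

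Libraries held 16211146 to 16646457 estimated gene counts in the PRL group and 16432849 to 17402348 in controls. PRL transcript followed the labels, with 8277, 8097 and 7789 counts in PRL libraries and 3, 3 and 1 in control libraries. Control libraries differed more among themselves than PRL libraries did: a chi-square comparison of counts, which sampling noise alone puts near 1 per gene, gave 1.68 to 2.22 for pairs of PRL libraries and 13.4 to 25.7 for pairs of controls. All 10 luminal markers checked were present, with summed levels of 17494 to 17730 TPM in the PRL group and 17794 to 19384 TPM in controls. Most of that sum came from KRT8, KRT18 and KRT19, and single markers went both ways. In edgeR's quasi-likelihood test (adjusted p under 0.05) PGR, CDH1, FOXA1 and GATA3 were higher in the PRL group. ESR1, KRT8, KRT18 and KRT19 were lower, and EPCAM and PRLR did not pass. Markers were counted as present at a mean of 1 TPM or more over the 6 libraries. Basal markers, 0 of 3 present, summed to 1.45 to 1.69 TPM in the PRL group and 0.34 to 0.64 TPM in controls. Stromal markers, 2 of 7 present, summed to 32.0 to 34.1 TPM in the PRL group and 25.1 to 32.5 TPM in controls. Immune markers, 4 of 5 present, summed to 24.7 to 26.2 TPM in the PRL group and 8.63 to 10.8 TPM in controls, of which CD68 gave 16.1 to 16.9 TPM in the PRL group and 2.71 to 3.28 TPM in controls. COL3A1, DCN, LUM, PDGFRB, KRT5 and KRT14 were at 0 in at least 1 library and no immune marker was. The part of these markers in the results was not tested. In such bulk RNA, fewer cells of a type and less RNA per cell cannot be told apart.

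Heat shock genes did not move as a block in the PRL group. Levels are given as CPM, counts relative to library size after edgeR's TMM scaling. A log2 fold change is positive where PRL libraries were higher, and SE is its standard error. Of the 10 members, HSPA1A and HSPA1B rose, HSPA8, HSP90AA1, HSPH1 and HSPB1 fell, and DNAJB1, BAG3, HSP90AB1 and HSF1 did not pass an adjusted p of 0.05 in edgeR's quasi-likelihood test. These 6 calls stand against 62.9% of all 14076 tested genes called in the same comparison, 32.4% higher and 30.5% lower, so the number of members called was close to that of genes at large. Groups did not overlap for 9 of the 10 members, and for 69.5% of all genes tested. The median log2 fold change of the members was -0.21, against 0.01 over all genes. By class, 2 of the 7 inducible members rose, 3 fell and 2 did not pass, while 1 of the 2 constitutive members fell and the other did not pass.

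**Figure D2:**
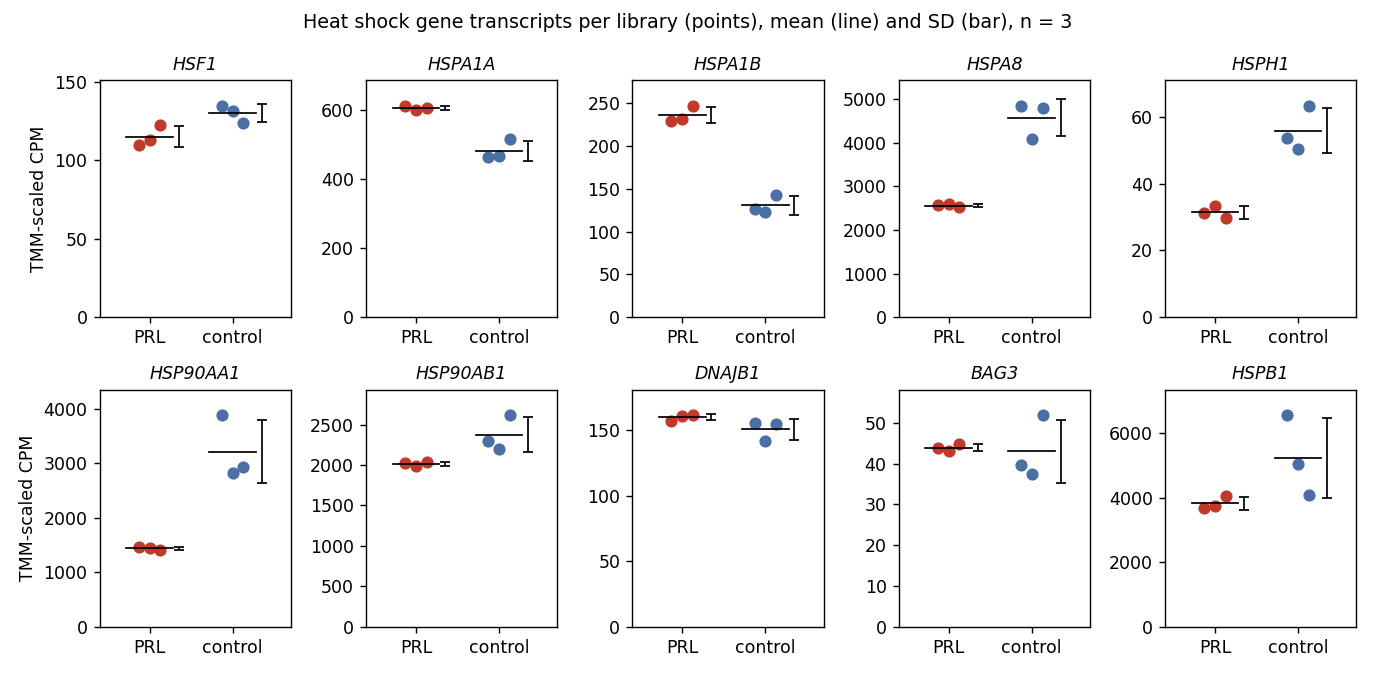
TMM-scaled CPM of the 10 genes in each library (y axes from 0, each gene on its own scale), PRL libraries in red left of control libraries in blue, with the mean as a line and the SD as a bar (n = 3). The PRL points lie above all control points for HSPA1A, HSPA1B and DNAJB1, within them for BAG3, and below them for the other six.

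HSF1, the master regulator of the heat shock response, differed little in transcript level. It had 110.0, 113 and 122 CPM in PRL libraries, against 135, 132 and 124 CPM in control libraries. The groups did not overlap, but control replicate 3 and PRL replicate 3 lay close together. The means were 115 ± 6.48 CPM in the PRL group and 130.0 ± 5.64 CPM in controls (SD, n = 3 each), a log2 fold change of -0.18 (SE 0.08, 95% interval -0.34 to -0.01), and the edgeR adjusted p was 0.064. The difference was 0.08 when library totals replaced TMM, -0.04 on FPKM and 0.16 on TPM, but these scales move all genes, and relative to the median gene it was -0.19 with TMM, -0.18 with library totals, -0.24 on FPKM and -0.23 on TPM. Without control replicate 3 it passed at -0.19 (edgeR adjusted p = 0.0218). HSF1 is controlled mostly at the protein level, which was not measured.

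HSPA1A and HSPA1B, which encode the heat-inducible HSP70, both rose. These intronless genes lie near each other on GRCh38 chromosome 6 (HSPA1A from 31815464 to 31817946 and HSPA1B from 31827735 to 31830255 in GENCODE 29, both on the plus strand). HSPA1A had 613, 599.6 and 608 CPM in PRL libraries, against 464, 466 and 515 CPM in control libraries. The PRL values were tightly grouped and all above the highest control, which was replicate 3. The log2 fold change was 0.33 (SE 0.08, edgeR adjusted p = 0.0046), a 1.26-fold difference, and it was 0.59 with library totals, 0.59 on FPKM and 0.79 on TPM. HSPA1B had 229, 232 and 247 CPM in PRL libraries, against 126, 123 and 143 CPM in control libraries. No PRL library came near the controls, and the log2 fold change was 0.85 (SE 0.08, edgeR adjusted p = 1.3e-05), a 1.81-fold difference and the largest rise among the members on the TMM, library-total, FPKM and TPM scales.

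How reads were divided between these copies is uncertain. Their coding sequences differ at 4 of 1923 bases (99.8% identity), and 69.9% of the windows of 100 bases in the HSPA1A transcript also occur in HSPA1B. Added together, the copies had 842, 832 and 855 CPM in PRL libraries, against 591, 589 and 658 CPM in control libraries. The sum, which does not depend on the division between these copies, rose by 0.46 on the log2 scale (SE 0.08, edgeR adjusted p = 8.3e-04), a 1.38-fold difference. Each copy shares windows with 2 other annotated genes. Of the HSPA1B windows 72.7% were shared in all and 68.8% with HSPA1A. The sum does not cover reads divided with a gene beyond the pair. On the per-length TPM scale HSPA1B made up 26.3%, 26.9% and 27.9% of the pair in PRL libraries and 20.6%, 20.1% and 20.9% in control libraries.

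HSPA8, the constitutive HSC70 that carries out folding, clathrin uncoating and chaperone-mediated autophagy in unstressed cells, went the other way. It lies on GRCh38 chromosome 11 (123057489 to 123063230, minus strand). It had 2573, 2583 and 2520.0 CPM in PRL libraries, against 4844, 4090.3 and 4791 CPM in control libraries. The lowest control, replicate 2, was still well above every PRL library. In edgeR it fell by 0.84 on the log2 scale (SE 0.11, adjusted p = 7.3e-05), which left 0.56 of the control level, and the change was -0.58 with library totals, -0.59 on FPKM and -0.39 on TPM. None of the windows of 100 bases in its main transcript occurs in another annotated gene.

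HSPH1, the HSP110 that frees ADP from HSP70 as a nucleotide exchange factor, fell with HSPA8. It had 31.1, 33.4 and 29.6 CPM in PRL libraries, against 53.8, 50.3 and 63.3 CPM in control libraries. Control replicate 3 was the highest of all, and the groups lay far apart. In edgeR it fell by 0.83 on the log2 scale (SE 0.10, adjusted p = 5.0e-05). The difference was -0.33 on TPM, where the call was lost (limma adjusted p = 0.056).

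Both HSP90 genes were lower in the PRL group on the TMM scale, the inducible member by more and it alone past the threshold. HSP90AA1, the stress-inducible alpha isoform on GRCh38 chromosome 14 (102080738 to 102139699, minus strand), had 1464, 1443 and 1401 CPM in PRL libraries, against 3885, 2828 and 2933 CPM in control libraries. Control replicate 1 stood above the other controls, and every PRL library was far below the lowest control. The mean was 1436 ± 32.2 CPM in the PRL group and 3215 ± 582 CPM in controls (SD, n = 3 each), and the change of -1.16 on the log2 scale (SE 0.13, adjusted p = 3.2e-05 in edgeR) was the largest fall among the members on the TMM, library-total, FPKM and TPM scales. Without control replicate 1 it was -0.999. HSP90AB1, the constitutive beta isoform on GRCh38 chromosome 6 (44246166 to 44253888, plus strand), had 2022, 1984 and 2037 CPM in PRL libraries, against 2304, 2205 and 2618 CPM in control libraries. The groups did not overlap, yet the log2 fold change of -0.24 (SE 0.10, 95% interval -0.46 to -0.02) missed the threshold with an edgeR adjusted p of 0.058. It passed in DESeq2 (-0.26, adjusted p = 0.0080), in limma-voom (-0.23, adjusted p = 0.0457) and without control replicate 1 (-0.25, adjusted p = 0.0176) or 2 (-0.29, adjusted p = 0.0299). Its sign turned with library totals (0.02), on FPKM (0.02) and on TPM (0.22), while relative to the median gene it was -0.25 with TMM, -0.25 with library totals, -0.18 on FPKM and -0.17 on TPM.

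Ratios of counts within a library do not depend on the scaling, and they moved in opposite directions for HSP70 and HSP90. The log2 ratio of HSPA1A plus HSPA1B to HSPA8 counts was -1.61, -1.64 and -1.56 in PRL libraries, against -3.04, -2.80 and -2.86 in control libraries. Its mean was 1.30 higher in the PRL group (SE 0.07), a 2.46-fold shift toward the inducible genes. The log2 ratio of HSP90AA1 to HSP90AB1 counts was -0.47, -0.46 and -0.54 in PRL libraries, against 0.75, 0.36 and 0.16 in control libraries. Its mean differed by -0.91 in the PRL group (SE 0.18), a 1.88-fold shift toward the constitutive gene. In neither ratio did the groups overlap, and an exact two-sided permutation test over samples gave p = 0.10 for both, also after adjustment over the 2 ratios, which is the smallest value that 3 against 3 libraries allow.

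**Figure D3:**
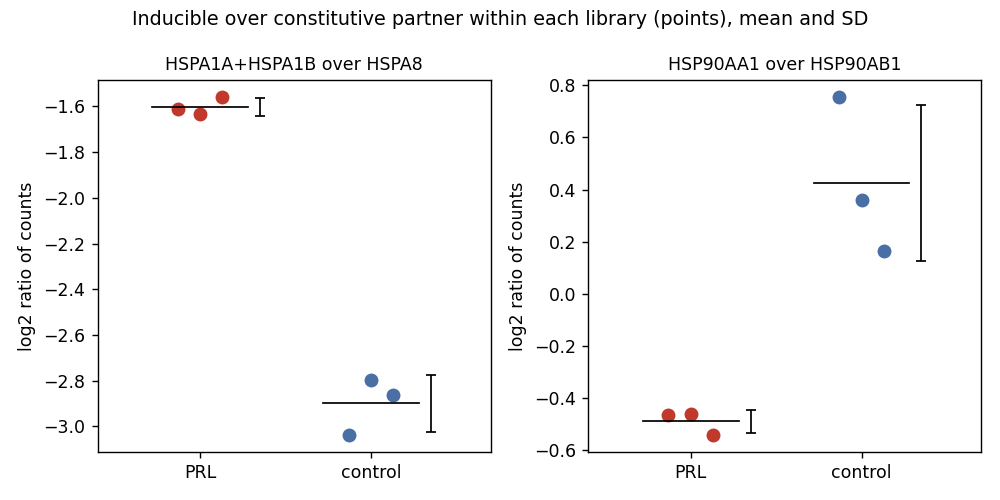
Log2 ratio of counts of the inducible to the constitutive partner in each library (points; PRL left, control right; line and bar are mean and SD, n = 3; the axes do not start at 0). The HSP70 ratio is higher in every PRL library than in every control, and the HSP90 ratio is lower.

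Per-length levels put these shifts in proportion. In TPM, which can be compared between genes, HSPA1A and HSPA1B made up 23.1%, 22.8% and 23.7% of the 3 HSP70 genes in PRL libraries and 10.00%, 11.6% and 11.2% in control libraries. HSP90AA1 made up 36.3%, 36.4% and 35.2% of the HSP90 pair in PRL libraries and 57.1%, 50.3% and 46.9% in control libraries. The 3 HSP70 genes together had 2671 to 2834 TPM in the PRL group and 2888 to 3510 TPM in controls, and the HSP90 pair 2216 to 2346 TPM in the PRL group and 2470 to 2786 TPM in controls. HSPA8 therefore remained the main HSP70 transcript in all 6 libraries.

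DNAJB1 and BAG3, co-chaperones of HSP70, showed no difference past the threshold. DNAJB1, the HSP40 that delivers clients and triggers ATP hydrolysis, had 157, 161 and 162 CPM in PRL libraries, against 155, 142 and 155 CPM in control libraries. Its groups were separated by less than 2 CPM at their nearest, and the log2 fold change was 0.09 (SE 0.07, 95% interval -0.08 to 0.25, edgeR adjusted p = 0.33). It passed as a rise of 0.34 with library totals (edgeR adjusted p = 0.0016), of 0.32 on FPKM and of 0.52 on TPM, which relative to the median gene were 0.08, 0.12 and 0.13. BAG3, which couples HSP70 to selective autophagy, had 44.0, 43.1 and 44.8 CPM in PRL libraries, against 39.7, 37.5 and 51.9 CPM in control libraries. Control replicate 3 alone lay above the PRL values. The log2 fold change was 0.03 (SE 0.11, 95% interval -0.22 to 0.28, edgeR adjusted p = 0.84), but 0.20 without control replicate 3 (edgeR adjusted p = 0.0163) and -0.07 without control replicate 2. It was 0.28 with library totals and on FPKM, and passed as a rise of 0.48 on TPM (limma adjusted p = 0.0139), which relative to the median gene were 0.02, 0.08 and 0.09.

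HSPB1, the small heat shock protein HSP27, was the most abundant member. It had 3683, 3736 and 4054 CPM in PRL libraries, against 6555, 5032 and 4089 CPM in control libraries. Control replicate 3 was nearly level with PRL replicate 3, and the controls spread over a range wider than the difference of the means. The means were 3824 ± 201 CPM in the PRL group and 5225 ± 1245 CPM in controls (SD, n = 3 each), and the log2 fold change of -0.45 (SE 0.16) passed with an edgeR adjusted p of 0.029. The call was lost without PRL replicate 1 (-0.42, edgeR adjusted p = 0.0946), 2 (-0.43, 0.092) or 3 (-0.49, 0.0574) and without control replicate 2 (-0.48, 0.0578), at differences of similar size. It held without control replicate 1 (-0.25, edgeR adjusted p = 0.032) and without control replicate 3 (-0.58, 0.0034). It was also lost with library totals (-0.18), on FPKM (-0.17) and on TPM (0.03), where relative to the median gene the difference was -0.45, -0.37 and -0.36, against -0.46 with TMM. Of the 100-base windows of its transcript, 5.06% also occur in the pseudogene HSPB1P1, while HSP90AA1 and HSP90AB1 share 2.14% and 1.59% with pseudogenes.

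Scaling moved all members in the same direction. Over all genes the median was 0.01 with TMM, 0.26 with library totals, 0.20 on FPKM and 0.39 on TPM, and the share of calls that were higher in the PRL group was 51.4%, 72.9%, 69.9% and 83.8% on these scales. Relative to these medians, HSF1, HSP90AB1 and HSPB1 were below the median gene on each of these scales. On TMM, library totals, FPKM and TPM alike, HSPA1A and HSPA1B were higher and HSPA8, HSP90AA1 and HSPH1 lower in the PRL group, with the TPM value of HSPH1 short of the threshold.

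**Figure D4:**
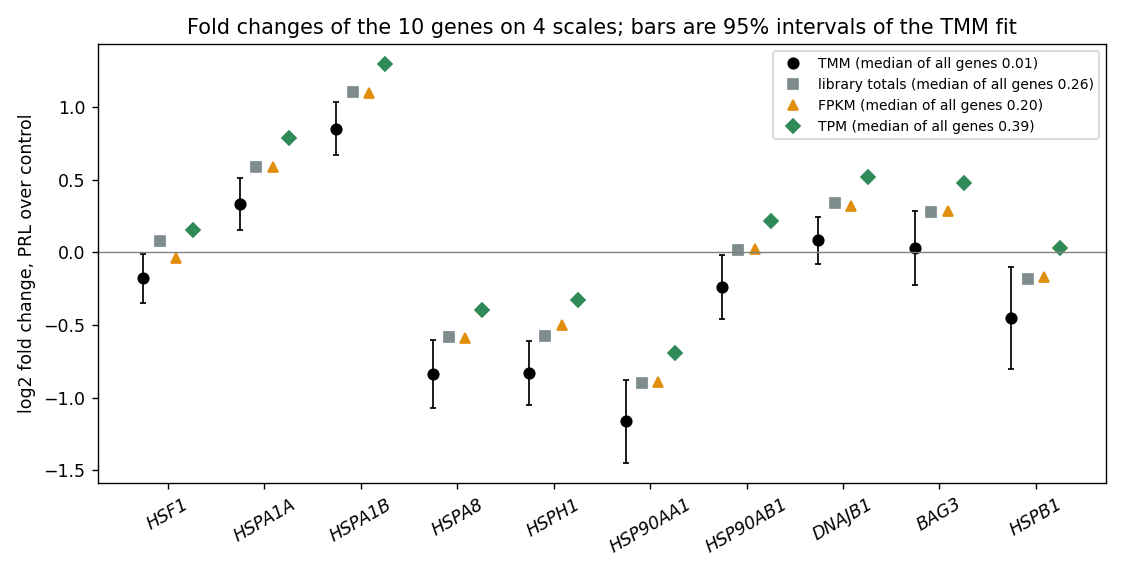
Log2 fold change (PRL over control) of the 10 genes on 4 scales, each with the median of all genes in the legend; bars are 95% intervals of the edgeR fit on TMM-scaled counts. HSPA1A and HSPA1B stay above 0 and HSPA8, HSPH1 and HSP90AA1 below it on every scale shown, while HSF1, HSP90AB1 and HSPB1 lie on both sides.

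In order of per-length level, the PRL group had HSPB1 at 9484 ± 320 TPM, HSPA8 at 2115 ± 72.0 TPM, HSP90AB1 at 1452 ± 36.9 TPM and HSP90AA1 at 816 ± 36.7 TPM. HSPA1A at 466 ± 14.2 TPM, HSPA1B at 173 ± 3.93 TPM, DNAJB1 at 131 ± 1.33 TPM and HSF1 at 111 ± 2.73 TPM followed, with BAG3 at 31.6 ± 0.778 TPM and HSPH1 at 16.6 ± 1.18 TPM last (SD, n = 3). No neighbours in this order overlapped in the PRL libraries. Controls had HSPB1 at 9352 ± 1277 TPM, HSPA8 at 2785 ± 289 TPM, HSP90AA1 at 1322 ± 89.7 TPM and HSP90AB1 at 1258 ± 208 TPM, then HSPA1A at 272 ± 40.8 TPM, HSF1 at 99.4 ± 7.70 TPM, DNAJB1 at 91.6 ± 8.30 TPM, HSPA1B at 70.3 ± 11.3 TPM, BAG3 at 22.8 ± 5.71 TPM and HSPH1 at 21.3 ± 4.16 TPM. In controls the HSP90 genes, HSF1 and DNAJB1, and BAG3 and HSPH1 overlapped with each other. HSPB1 ranked 4 among all transcripts of the PRL group and 7 among those of controls by mean TPM.

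Genes with the most similar profile over the 6 libraries were found by the root-mean-square difference of log2 CPM, each gene centred on its mean. For the sum of HSPA1A and HSPA1B these were PEG10 (difference 0.020), ERVV-2 (0.021) and GPBP1L1 (0.023). For HSP90AB1 they were RTN4 (0.013), PRCP (0.017) and LRRC59 (0.022). These values describe likeness in a set dominated by the difference between the groups.

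The wider chaperone network was read from lists of textbook members, without the 10 genes above. Of 95 tested genes, each counted once, 18 rose (18.9%), 47 fell (49.5%) and 30 did not pass, against 32.4% of all tested genes higher and 30.5% lower. The median log2 fold change was -0.24, against 0.01 over all genes. With library totals 31 rose and 30 fell, and on TPM 44 rose and 12 fell. Of the calls in the lists 27.7% were higher with TMM, 50.8% with library totals and 78.6% on TPM, against 51.4%, 72.9% and 83.8% of all calls.

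Chaperones of newly made protein fell on the TMM scale. Of all tested genes 30.5% were lower on that scale. All 8 subunits of TRiC, the ring-shaped chaperonin that folds actin and tubulin, fell, with a median of -0.61. CCT4 averaged 166 ± 4.18 CPM in the PRL group and 300.0 ± 27.6 CPM in controls (log2 fold change -0.85, edgeR adjusted p = 1.6e-05), and CCT3 and CCT6A fell by 0.75 and 0.66 on the log2 scale. All 6 subunits of prefoldin, which hands nascent chains to TRiC, fell as well, with a median of -0.54, among them VBP1 (-0.76), PFDN5 (-0.82) and PFDN4 (-0.65). With library totals and on FPKM 7 TRiC and 3 prefoldin genes fell, and on TPM 4 and 1, with no gene of either list rising on any of these scales.

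Among partners of HSP70 and HSP90, more genes fell than rose on the TMM scale. Of all tested genes 32.4% were higher and 30.5% lower there. The shares were 6.67% and 46.7% for HSP70 relatives and regulators, and 6.67% and 53.3% for HSP90 co-chaperones. For J-domain co-chaperones they were 16.7% and 41.7%, nearer to those of all genes. Of 15 tested HSP70 relatives and regulators 7 fell, among them HSPBP1, a nucleotide exchange factor, at 62.2 ± 0.409 CPM in the PRL group and 133 ± 23.2 CPM in controls (log2 fold change -1.09, edgeR adjusted p = 2.1e-05), HSPA4 (-0.65) and BAG1 (-0.55). The 1 that rose, HSPA6, is a strictly inducible HSP70 with a near-identical pseudogene. It had 37, 31 and 43 counts in PRL libraries, against 9, 11 and 16 in control libraries (log2 fold change 1.41, SE 0.29, edgeR adjusted p = 0.0016). HSPA6 passed the count filter through the PRL libraries, since control replicate 1, at 9 counts, was below the filter's level. Of 15 HSP90 co-chaperones 8 fell, with SUGT1 at -0.84 and STIP1, which bridges HSP70 and HSP90, at -0.63, and 1 rose: FKBP5, an immunophilin of steroid receptor complexes, had 229 ± 6.44 CPM in the PRL group and 153 ± 19.6 CPM in controls (log2 fold change 0.58, edgeR adjusted p = 3.8e-04). Of 12 J-domain co-chaperones 5 fell, led by DNAJC9 (-0.79), DNAJC2 (-0.55) and DNAJA1 (-0.45), and 2 rose, DNAJB4 (0.64) and DNAJB5 (0.66). Without PRL replicate 1 or 2, or control replicate 1 or 2, 1 gene of this list was called higher, and without control replicate 2 the HSP70 list had 2. With library totals 4 rose and 4 fell of the HSP70 list, 2 and 3 of the HSP90 list, and 5 and 3 of the J-domain list. On FPKM these were 3 and 4, 2 and 4, and 5 and 3. On these 2 scales 72.9% and 69.9% of all calls were higher. On TPM more genes of these lists rose than fell: 7 rose and 1 fell of the HSP70 list, 6 and 2 of the HSP90 list, and 7 and 2 of the J-domain list, on a scale where 83.8% of all calls were higher.

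Most other genes known to respond to HSF1 fell on the TMM scale. Of 16 tested, some of them also in the lists above, 11 fell, 2 rose and 3 did not pass, with a median of -0.49. HSPE1 (-0.73), MRPL18 (-0.64) and STIP1 fell, and DEDD2 (0.43) and HSPA6, at the low counts given above, rose. With library totals 4 rose and 8 fell, on FPKM 3 and 9, and on TPM 4 and 2, all scales where most calls were higher. Among HSF relatives HSF2 rose, to 13.97 ± 0.507 CPM in the PRL group against 9.56 ± 1.24 CPM in controls (log2 fold change 0.55, edgeR adjusted p = 0.0022), HSBP1, a small protein that binds the HSF1 trimer, fell (-0.49), and HSF2BP was at 0.20 (edgeR adjusted p = 0.43); on TPM 2 genes of this list rose and 0 fell. In the small heat shock list HSPB11, also known as the intraflagellar transport subunit IFT25, fell to 20.8 ± 0.991 CPM in the PRL group, against 101 ± 7.10 CPM in controls (log2 fold change -2.29, edgeR adjusted p = 1.3e-08). HSPB8 (-0.54) and CRYAB (-1.01, at 12 to 23 counts in PRL libraries and 28 to 35 in control libraries) fell too, and HSPB9 had 10 to 18 counts in PRL libraries and 1 to 7 in control libraries (1.49, edgeR adjusted p = 0.024). HSPB9 passed the count filter through the PRL libraries, and its call was lost in DESeq2, with a CPM of at least 1, and without PRL replicate 1, PRL replicate 2 or control replicate 1.

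Chaperones of the endoplasmic reticulum mostly rose. Of 14 tested 10 rose (71.4%) and 1 fell (7.14%), against 32.4% of all tested genes higher and 30.5% lower. The median of the list was 0.49. HSPA5, the HSP70 of that compartment known as BiP, averaged 1235 ± 20.3 CPM in the PRL group and 557 ± 34.6 CPM in controls (log2 fold change 1.15, edgeR adjusted p = 2.5e-06), and DNAJB9 (1.47) and PDIA4 (1.07) rose as well, whereas SDF2L1 fell (-0.54). On library totals, FPKM and TPM 11, 11 and 13 of them rose, on scales where 72.9%, 69.9% and 83.8% of all calls were higher. The list of mitochondrial chaperones also holds the proteases CLPP and LONP1. Of its 10 genes 5 fell (50%), among them CLPB (-0.89), HSPE1 (-0.73) and the chaperonin HSPD1 (-0.60), and 1 rose (10%), DNAJA3 (0.51). Without PRL replicate 1 or 2, 3 of them were called lower, and without control replicate 3, 2 were called higher, while 4 rose and 3 fell with library totals, and 5 rose and 1 fell on TPM. HSPA6, DNAJB4, DNAJB5, DEDD2, HSPB9, SDF2L1 and DNAJA3 were chosen for mention after their values were seen.

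**Figure D5:**
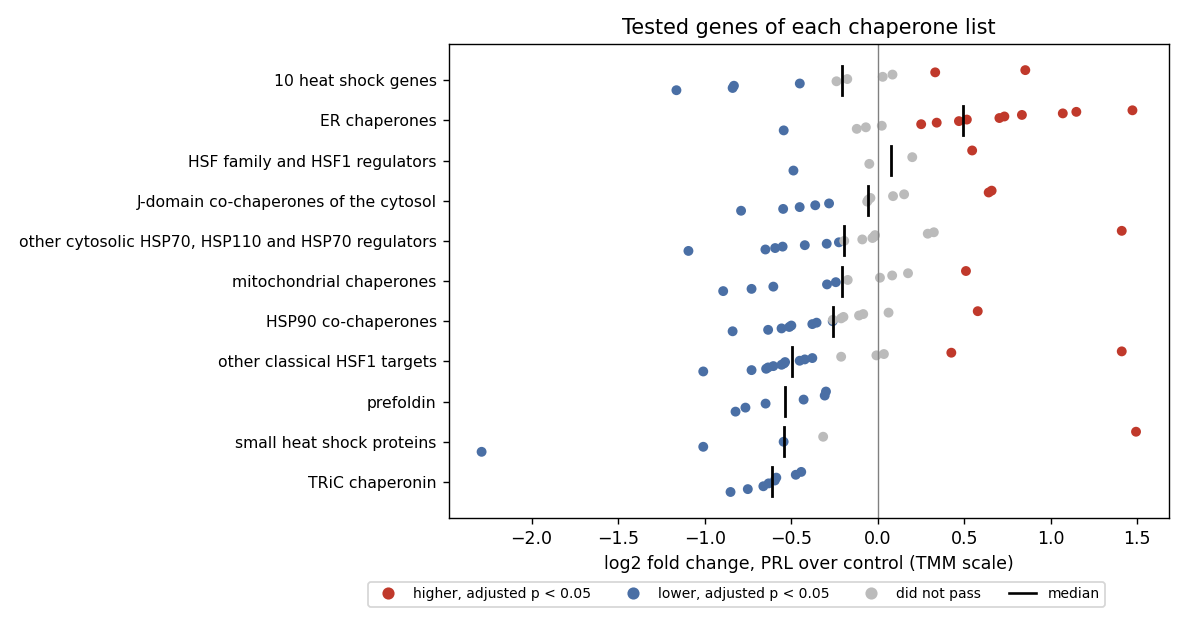
Log2 fold change (PRL over control, TMM scale) of each tested gene in the 10 heat shock genes and the 10 chaperone lists (1 row each; points are genes, black lines medians; red, higher and blue, lower at an adjusted p under 0.05; grey, did not pass). Points of TRiC and prefoldin all lie below 0, and most of the endoplasmic reticulum list lies above it.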

How the data were processed

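Total RNA from T47D cells was isolated by Trizol for 6 Illumina libraries, per the labels' protocols. HISAT2 2.1.0, Bowtie2 2.3.4.3 and GRCh38.p13 are named in the submitters' processing notes. Which program counted reads, on which annotation and by which strand rule is not given in the sources used here. The authors deposited values per gene and library as estimated counts of reads without normalization, as FPKM and as TPM, per the file headers. The estimated counts as deposited were rounded to whole numbers for the count fits, since 44.1% to 45.9% per library were not whole. The 6 columns of authors' means were not used.

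Groups came from the sample titles. Members, lists and tests were chosen with earlier results of these data known. edgeR 4.0.16 (R 4.3.3; quasi-likelihood, robust, filter by group, TMM) was fitted to all 14076 genes, with Benjamini-Hochberg adjustment. Alternatives were DESeq2 1.42.0, limma 3.58.1 (voom, and a trend on log2 FPKM or TPM plus 1 with a mean of at least 1), other scalings and filters, the replicate number as a block, and each library left out. The fits were tested on simulated data in which few genes changed and both groups had the same spread. That simulation cannot show how the fits behave in these data, where most genes were called and controls varied more. CPM are TMM-scaled; intervals are 95%. The text names all members, PRL, the 3 genes per list with the smallest adjusted p, and 3 near profiles each for the HSPA1 sum and HSP90AB1. Gene positions, coding sequences and shared windows are from GENCODE 29, promoters from RefSeq. A comparison of protein sequences was planned and not used here; coding sequences took its place.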

Additional observations from a re-analysis of the deposited data

How the results depend on the processing

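HSPA1A, HSPA1B, HSP90AA1 and HSPA8 kept their direction and their call under each alternative run (ranges of log2 fold change 0.30 to 0.79, 0.81 to 1.30, -1.25 to -0.69 and -0.92 to -0.39). HSPH1 kept its call except on TPM (-0.33). Signs turned for HSP90AB1 (0.015), HSF1 (0.080) and RTN4 (0.030) with library totals; for HSP90AB1 (0.022) and LRRC59 (0.0019) on FPKM; and for HSPB1 (0.029), HSP90AB1 (0.22), HSF1 (0.16), DNAJA1 (0.0066), RTN4 (0.068), PRCP (0.15) and LRRC59 (0.20) on TPM. BAG3 was at -0.02 without control replicate 1 and -0.067 without control replicate 2. Counts of genes called lower were 2394 with library totals, 2356 on FPKM and 1375 on TPM, against 4300, and 7118 were called higher on TPM, against 4554. On TPM 4 members were called higher and 2 lower. Of the chaperone lists 31 genes were higher and 30 lower with library totals, 30 higher on FPKM, and 44 higher and 12 lower on TPM. These scales shift the median of all genes; further causes were not tested.

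Leaving out 1 library at a time gave 7590 to 9952 genes called (3929 to 5264 higher, 3653 to 4688 lower), 5 to 8 members called (2 to 3 higher, 3 to 5 lower), 14 to 20 list genes higher and 40 to 50 lower, and differences in the log2 ratio of 1.23 to 1.35 for HSP70 and -1.04 to -0.75 for HSP90. The 28 genes named from the lists kept direction and side of the threshold in 463 of 476 repeats. The changes were on TPM, apart from CRYAB without PRL replicate 1 (-0.78, edgeR adjusted p = 0.0501). On TPM the calls of HSBP1, HSPA4, BAG1, HSPB8, CRYAB, VBP1, PFDN4, CLPB, HSPD1 and MRPL18 were lost. There HSF2BP passed and DNAJA1 changed sign. Same-numbered libraries did not deviate together (correlations of deviations -0.11, 0.04 and -0.06), so the numbers were not taken as pairs. The replicate block gave 8531 genes called (4423 higher, 4108 lower), the same 6 called members in number (2 higher, 4 lower), 17 and 44 list genes, and ratio differences of 1.30 and -0.91. With 3 libraries a group, the 95% interval of BAG3 ran between -0.22 and 0.28, so true differences in that range remain compatible with these libraries. Without control replicate 3 BAG3 was at 0.20 and passed (edgeR adjusted p = 0.0163).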
